A study of Mus musculus with 8 samples.

Results

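Interferon-stimulated genes, the genes that a cell switches on after it binds an interferon, were examined in mCherry+CD73+ cells sorted by FACS from the growth plates of Pthrp-mCherry mice. A fixed list of 43 gene symbols defined the group, and all 43 were among the 16536 genes of the count table. In Pthrp-mCherry mice the fluorescent protein mCherry reports expression of *Pthlh*, which encodes PTHrP, and CD73, the product of *Nt5e*, was the second sort marker. 4 mice received SAG, an agonist of Smoothened that switches on Hh signaling, and 4 mice received DMSO, its vehicle, by i.p. injection once daily from P30 to P36, and all were sacrificed at P38. All 8 mice carried the mCherry reporter, 1 library of total RNA was sequenced from each mouse, and neither the sex of each mouse, of a study that used both sexes, nor a background strain is given in the sources used here. The methods place the first and the last injection 1 day later. The labels name the tissue as the metaphyseal growth plate. The rule for the list uses no measured value, although earlier results of these data were known when it was drawn up.

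Type I interferons (α and β) bind a receptor of IFNAR1 and IFNAR2, type II interferon (γ) binds IFNGR1 and IFNGR2, and type III interferons (λ) bind IFNLR1 with IL10RB. Janus kinases at the receptors then phosphorylate STAT proteins. STAT proteins together with IRF9 bind the interferon-stimulated response element (ISRE) in promoters after type I or III interferon, and STAT dimers bind the gamma-activated site (GAS) after type II interferon. The proteins made in response sense foreign RNA, block translation, degrade RNA, or hold viruses at membranes, and many of the genes are also expressed at a basal level in cells that have met no virus, in particular in cells of the immune system.

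Promoter sequences of RefSeq (assembly GRCm38.p6, 250 bases before to 50 bases after the transcription start) were matched by symbol to 34 of the 43 genes. *Dhx58*, *Zbp1*, *Usp18*, *Oas2*, *Mx1*, *Mx2*, *Parp14*, *Rtp4*, and *Ifi27* were not matched. The core of the ISRE, GAAA followed after a gap of 2 bases by GAAA, was searched on both strands, and the letters TTCNNNGAA of the GAS read the same on both. The ISRE letters were present in 19 of the 34 promoters (55.9%) and in 3.99% of all 27025 genes with a promoter sequence. The GAS letters were present in 11 of the 34 (32.4%) and in 9.55% of all genes. These are matches of letters, not measurements of binding. The stretches shown here lie outside annotated exons and come from genes whose values carry the results. *Isg15*, *Ifit1*, and *Ifit3* hold 2 or 3 ISRE matches, and *Irf1* holds the GAS letters alone. Further genes had a large fold change or no overlap between the groups, and *Ifitm6* and *Samd9l* were the genes that passed the test. *Ifit2*, not shown, held the GAS letters and no ISRE letters. Capitals mark the ISRE and GAS letters.
Isg15 (chr4:156200859-156200918, minus strand, bases -100 to -41 from the start): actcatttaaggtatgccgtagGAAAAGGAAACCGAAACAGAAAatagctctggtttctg
Ifit1 (chr19:34640769-34640828, plus strand, bases -120 to -61 from the start): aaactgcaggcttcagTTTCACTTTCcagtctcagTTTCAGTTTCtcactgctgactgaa
Ifit3 (chr19:34583359-34583418, plus strand, bases -170 to -111 from the start): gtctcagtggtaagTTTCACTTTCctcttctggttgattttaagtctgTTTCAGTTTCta
Irf1 (chr11:53769904-53769963, plus strand, bases -110 to -51 from the start): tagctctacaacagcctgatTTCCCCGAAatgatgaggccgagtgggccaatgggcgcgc
Igtp (chr11:58199496-58199555, plus strand, bases -60 to -1 from the start): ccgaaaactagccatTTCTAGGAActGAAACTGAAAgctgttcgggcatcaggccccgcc
Oas3 (chr5:120777700-120777759, minus strand, bases -100 to -41 from the start): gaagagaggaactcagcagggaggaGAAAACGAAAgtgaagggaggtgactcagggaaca
Ifitm2 (chr7:140955988-140956047, minus strand, bases -86 to -27 from the start): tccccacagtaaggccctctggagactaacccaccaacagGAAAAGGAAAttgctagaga
Trim30a (chr7:104465194-104465253, minus strand, bases -60 to -1 from the start): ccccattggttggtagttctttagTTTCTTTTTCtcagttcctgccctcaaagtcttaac
Ifitm6 (chr7:141016909-141016968, minus strand, bases -76 to -17 from the start): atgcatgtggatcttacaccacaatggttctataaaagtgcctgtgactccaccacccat
Samd9l (chr6:3399573-3399632, minus strand, bases -61 to -2 from the start): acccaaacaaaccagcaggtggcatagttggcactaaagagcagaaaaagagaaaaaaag
In *Isg15* the 3 ISRE matches overlapped and spanned the bases from -78 to -57. In *Igtp*, a GTPase induced by interferon-γ, the GAS letters ended 2 bases before the ISRE letters began. *Samd9l* held neither set of letters in its 300-base window. *Ifitm6* held no ISRE letters, and its GAS letters, at bases -10 to -2, lay outside the stretch shown. No match in such a window says only that these letters are not in it.

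**Figure D1:**
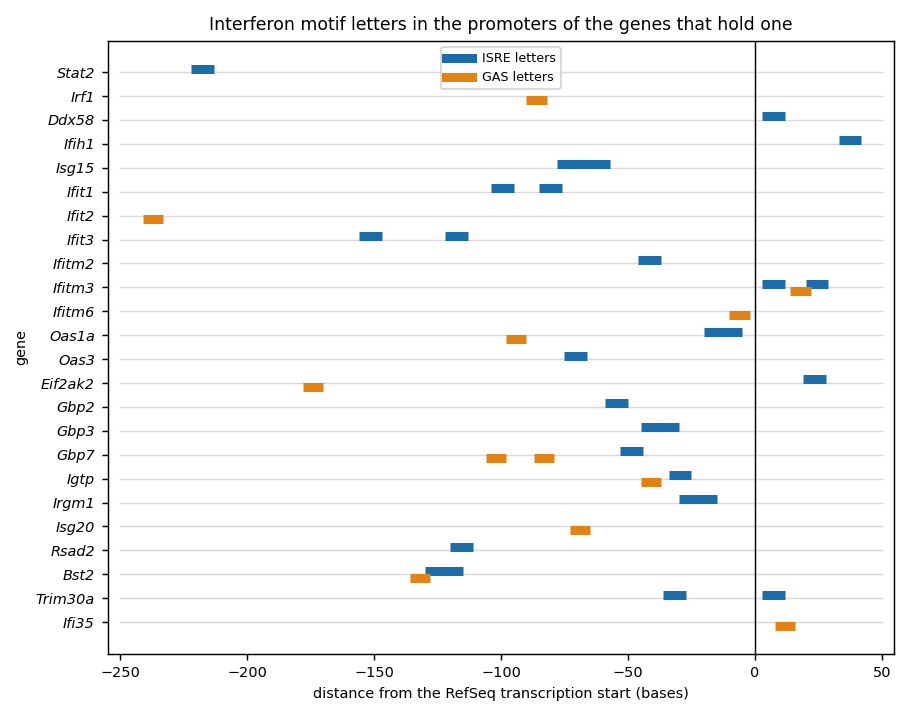
Position of ISRE and GAS letters in the promoters of the 24 genes that hold either, as distance in bases from the RefSeq transcription start (vertical line), with the 300-base window drawn as a thin line. 19 genes hold ISRE letters and 11 hold GAS letters, and most ISRE matches lie within 130 bases before the start.

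Counts on genes totalled between 24971992 and 46593090 per library, and 3 counts corresponded to between 0.0670 and 0.114 CPM (counts scaled to library sizes corrected by TMM). This floor reflects counting error alone. DMSO replicate 4 had the fewest genes with a count, 14416, and correlated less with the other DMSO-treated mice (Spearman's rho of 0.834 to 0.868 across genes) than these did with each other (0.926 to 0.938). For genes in which it stood apart or decided the call, values without it are given as well. Every pair of libraries differed by more than sampling noise. Markers of cartilage were abundant, with *Col2a1* at 32463 to 68832 CPM in DMSO-treated and 11759 to 34149 CPM in SAG-treated mice. Both sort markers were present, with *Nt5e* between 149 and 269.6 CPM and *Pthlh* between 14.9 and 29.9 CPM.

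Per length of exon, the interferon-stimulated genes covered more than 3 orders of magnitude, from the IFITM genes down to *Ifi44*. Levels per length are CPM per kb of exon, as means of 4 mice, and genes are ordered by the mean of all 8. *Ifitm6* came first, with 100.2 in DMSO-treated and 381 in SAG-treated mice. *Ifitm2* (145 and 222) and *Ifitm3* (90.6 and 162) came next, with *Ifitm2* above *Ifitm6* in DMSO-treated mice. The group means of these 3 of the 4 listed genes of this family of small membrane proteins stood above those of all other members. *Isg15*, the ubiquitin-like modifier, followed at 25.2 and 24.3, and *Samd9l* came after it at 13.9 and 34.3. From *Isg15* down to *Irgm1* the levels fell in small steps, and the ranges of neighbouring genes over the 8 libraries overlapped. *Mx2* (0.278 and 0.105), which the annotation classes as a polymorphic pseudogene, and *Ifi44* (0.0736 and 0.116) were close to the floor, with at most 2.28 CPM and 1.55 CPM in any mouse.

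**Figure D2:**
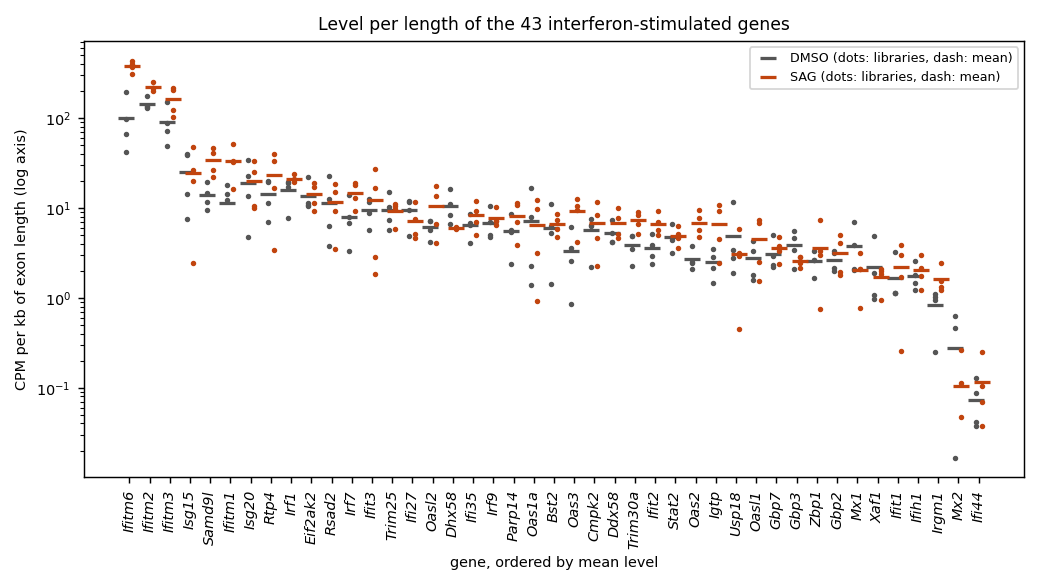
Level per length (CPM per kb of exon, log axis) of the 43 genes, ordered by their mean, with dots for the 4 libraries of each group and dashes for the group means. Libraries at 0 (DMSO replicate 4 for *Ifitm1*, DMSO replicate 2 and SAG replicate 4 for *Mx2*) have no dot on the log axis, and the group means of *Ifitm6*, *Ifitm2*, and *Ifitm3* lie above those of all other genes, although single libraries overlap.

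SAG-treated and DMSO-treated mice were compared gene by gene. In edgeR's quasi-likelihood fit 2 of the 43 genes were higher in SAG-treated mice, *Ifitm6* and *Samd9l*, and 0 were lower at an adjusted p below 0.05, the threshold for a gene to be called. That is 4.65% of the genes, whereas 2.89% of all 15421 genes tested were called, 2.62% higher and 0.266% lower. All 43 passed the filter on low counts. At an unadjusted p under 0.05, 10 were higher and 1 was lower (23.3% and 2.33%, against 9.58% and 6.5% of all genes), and DESeq2's Wald test gave 4 higher and 0 lower (9.3% and 0%, against 5.17% and 2.53% of all genes). The genes that DESeq2 added were *Ifitm2* and *Oas2*, and calls in the following are those of edgeR unless DESeq2 is named. The log2 fold change was above 0 in 33 of 43 genes (76.7%, against 45.2% of all genes), with a median of 0.36 against -0.082 for all genes. A median of the 43 was also taken per mouse, as log2 CPM minus the mean of the 8 mice. It was -0.49, -0.33, -0.024, and 0.34 for DMSO replicates 1 to 4. SAG replicates 1 to 4 had -0.41, 0.57, 0.11, and 0.72, a range that overlaps the first. Between replicates this median had a spread of 0.44, larger than 0.36. Genes of a library share its RNA, so 33 of 43 is a description. A shift of the whole list was not tested. The groups did not overlap in *Ifitm2*, *Ifitm6*, *Oas2*, *Irgm1*, *Samd9l*, and *Trim30a*, with all SAG-treated mice above, nor in *Dhx58*, with all below (14% and 2.33% of the genes, against 7.9% and 3.84% of all genes). In the other 36 genes the groups overlapped. Without DMSO replicate 4, 6 genes were called higher, which added *Irf7*, *Ifitm3*, *Oas2*, and *Oas3*. Without DMSO replicate 1, 2, or 3 or SAG replicate 2, 3, or 4, the number called was 0 each time. It was 2 without SAG replicate 1. The count over all genes also changed with the mouse left out, and its range is given in the last section. In simulated data with 4 libraries per group, edgeR recovered 0% of genes changed 2-fold and 52% of those changed 4-fold, with 14951 and 14954 genes fitted. The simulation changed 200 genes and made no library stand apart as DMSO replicate 4 did, so its percentages need not hold for these data.

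Markers of other cell types that a sort of growth plate tissue could hold also differed between the groups. Of 14 neutrophil markers, 11 were higher and 0 lower in SAG-treated mice with edgeR (12 and 0 with DESeq2), with a summed level of 5272 to 14976 CPM in DMSO-treated and 28543 to 45143 CPM in SAG-treated mice, and none was at 0 in any library. Of 8 B lineage markers, 3 were lower with edgeR and 6 with DESeq2, with a summed level of 71.6 to 313 CPM in DMSO-treated and 16.1 to 32.8 CPM in SAG-treated mice, and *Vpreb1* and *Ms4a1* were at 0 in at least 1 library. Of 10 monocyte and macrophage markers, 1, *Ly6c2*, was higher, and the median log2 fold change of the 10 was 0.31. Their sum was 291 to 529 CPM in DMSO-treated and 478 to 651 CPM in SAG-treated mice. *Ly6c2* alone was at 39 to 121 CPM in DMSO-treated and 149 to 241 CPM in SAG-treated mice. The 5 plasmacytoid dendritic cell markers with a column are of a cell type known for making type I interferon. They summed to 17.5 to 35.8 CPM in DMSO-treated and 5.43 to 12.7 CPM in SAG-treated mice. 0 were called by either tool, and *Pacsin1* and *Cd209d* were at 0 in at least 1 library. The 1 gene lower at an unadjusted p under 0.05, *Spib*, was at 7.41 to 23 CPM in DMSO-treated and 0.345 to 7.58 CPM in SAG-treated mice. The other log2 fold changes were 0.015 for *Siglech*, 0.062 for *Cd209d*, -0.86 for *Ccr9*, and -2.66 for *Pacsin1*. All 10 chondrocyte markers had a log2 fold change below 0, 0 were called with edgeR (9 lower at an unadjusted p under 0.05) and 5 were lower with DESeq2, and their sum was 46083 to 105237 CPM in DMSO-treated and 18441 to 52039 CPM in SAG-treated mice. Of the osteoblast markers 0 were called with edgeR and 2, *Alpl* and *Bglap*, were lower with DESeq2, and of the resting zone and sort markers 0 were called with edgeR and 1, *Sfrp5*, was lower with DESeq2. Of the markers of T and NK cells, erythroid and endothelial cells, and megakaryocytes, 0 were called with either tool, and at an unadjusted p under 0.05 1 was higher and 1 lower, both of T and NK cells. The part of these cells in the differences of interferon-stimulated genes was not tested, and in bulk RNA a change in the share of a cell type and a change in RNA per cell cannot be told apart.

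**Figure D3:**
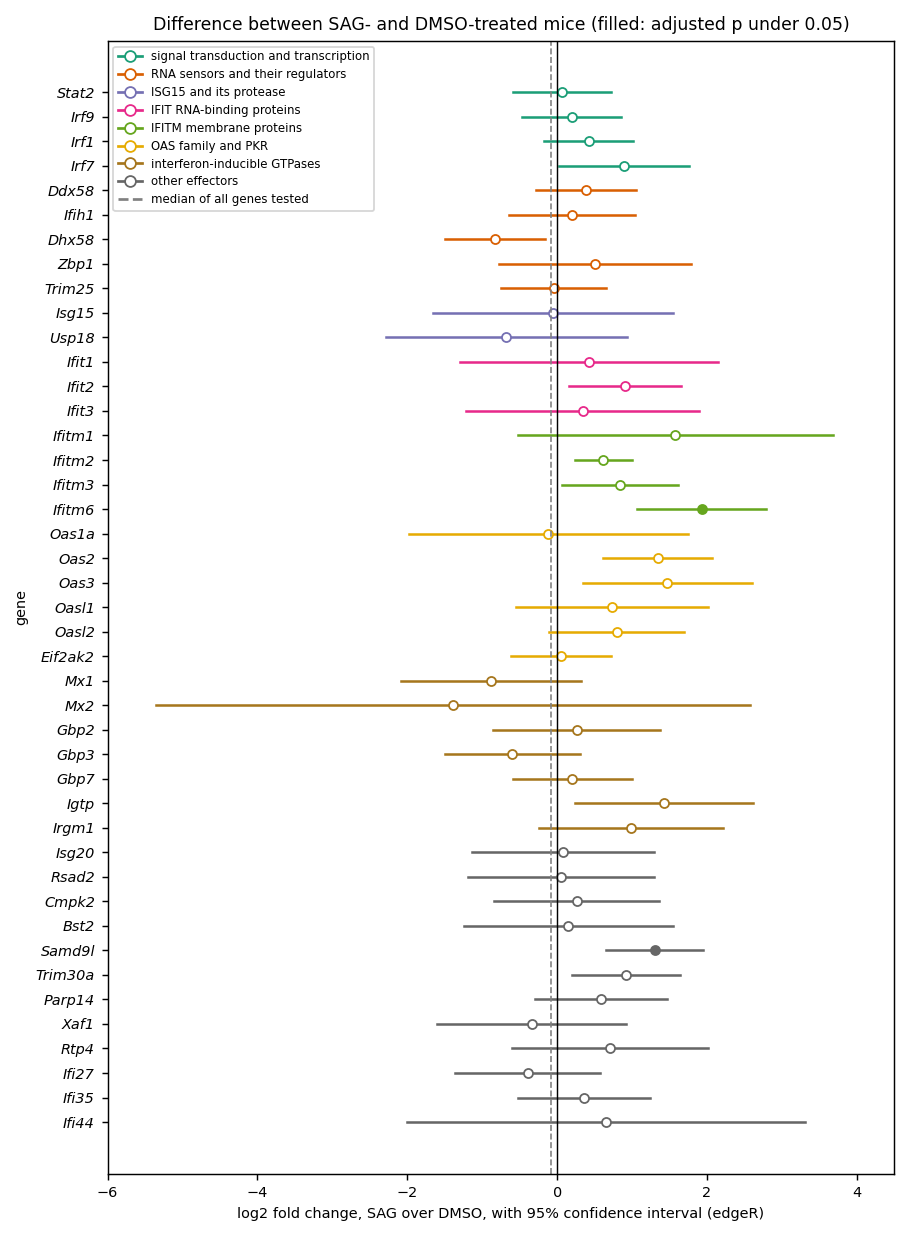
Log2 fold change (SAG over DMSO, points) and 95% confidence interval (lines) of each of the 43 genes from edgeR's quasi-likelihood fit, colored by role. Filled points mark *Ifitm6* and *Samd9l*, the 2 genes with an adjusted p under 0.05, and 33 points lie above 0. The dashed line is the median of all genes tested, -0.082.

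The 4 listed IFITM genes encode small membrane proteins that restrict the entry of viruses into cells, and they lie together on chromosome 7. All 4 log2 fold changes were above 0, and 1 was called. *Ifitm7* and *Ifitm10*, relatives in the second list of interferon-inducible genes described below, had log2 fold changes of -0.41 and -0.51 (adjusted p = 0.938 and 0.668). *Ifitm6* (GRCm38, chr7:141015699-141017924) was measured at 60.5, 37.6, 87.8, and 177 CPM in DMSO replicates 1 to 4 and at 283, 397, 336, and 363 CPM in SAG replicates 1 to 4. The lowest SAG-treated mouse was above the highest DMSO-treated mouse, DMSO replicate 4. The log2 fold change of *Ifitm6* was 1.93 (SE 0.39, 95% confidence interval 1.07 to 2.79, adjusted p = 0.0255), and the means were 90.7 ± 60.9 and 345 ± 48.1 CPM (SD, n = 4). Leaving out 1 mouse at a time kept the log2 fold change between 1.67 and 2.50. The adjusted p was 0.0726, 0.0599, and 0.107 without DMSO replicates 1, 2, and 3 and 0.0787, 0.0624, and 0.0756 without SAG replicates 2, 3, and 4, so of these 8 fits the call held in the 2 without DMSO replicate 4 (adjusted p = 8.17e-04) or SAG replicate 1 (adjusted p = 0.0404). The sum of the 14 neutrophil markers was also highest in DMSO replicate 4 among the DMSO-treated mice, and its part in *Ifitm6* was not tested.

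*Ifitm2* (chr7:140954837-140955987), whose promoter holds 1 ISRE match, was measured at 86, 115, 90.3, and 87.4 CPM in DMSO-treated and 142, 133, 142, and 164 CPM in SAG-treated mice. The groups did not overlap and the spread within each was small, yet the log2 fold change of 0.62 (SE 0.17, adjusted p = 0.0846) did not pass the test, whereas DESeq2 gave an adjusted p of 0.0218. Of the 31-base words in *Ifitm2* transcripts, 55.5% also occur in other annotated genes, mostly in the overlapping model Gm45717, so its count depends on how reads were divided. *Ifitm3*, the best known antiviral member of the family, was measured at 60.1, 33.1, 48.6, and 104 CPM in DMSO-treated and 69.7, 146, 84.8, and 139.6 CPM in SAG-treated mice. DMSO replicate 4 lay inside the range of the SAG-treated mice, and the log2 fold change was 0.84 (SE 0.35, adjusted p = 0.262). Without that mouse it was 1.25 (adjusted p = 0.0239). *Ifitm1* was at 15.8, 19.9, 13.6, and 0 CPM in DMSO-treated and 56.6, 36, 17.9, and 36.8 CPM in SAG-treated mice. DMSO replicate 4 had a count of 0, and the log2 fold change of 1.58 (SE 0.96, adjusted p = 0.482) did not pass the test. Without that mouse it was 1.19 (adjusted p = 0.0640).

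The OAS enzymes make 2′-5′ oligoadenylates, which activate RNase L, when they bind double-stranded RNA, the OAS-like proteins are relatives of them, and *Eif2ak2* encodes PKR, a kinase that halts translation. 5 of these 6 genes had a log2 fold change above 0, and 0 were called. *Oas2* (chr5:120730333-120749853) was measured at 16.8, 11, 9.27, and 11.3 CPM in DMSO-treated and 21, 41.9, 25.2, and 34.2 CPM in SAG-treated mice, without overlap. Its log2 fold change of 1.34 (SE 0.33, adjusted p = 0.0543) did not pass the test, DESeq2 gave an adjusted p of 0.00394, and edgeR gave 0.0322 without DMSO replicate 4. *Oas3* was measured at 6.06, 18.2, 25.7, and 44 CPM in DMSO-treated and 30, 88.4, 66.8, and 75 CPM in SAG-treated mice, and DMSO replicate 4 and SAG replicate 1 were the mice that overlapped. Its log2 fold change was 1.47 (SE 0.51, adjusted p = 0.167) with all mice and 1.99 without DMSO replicate 4 (adjusted p = 0.0260).

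*Oas1a*, a further OAS enzyme, was measured at 2.63, 4.22, 14.9, and 31.8 CPM in DMSO-treated and 1.75, 18.5, 5.90, and 23.1 CPM in SAG-treated mice. The mice of each group spread over more than 10-fold, and the log2 fold change of -0.12 had a confidence interval of -1.98 to 1.75. Of its 31-base words 68.8% are shared, nearly all with its copy *Oas1g*, and the sum of both was 13.6 ± 13.5 CPM in DMSO-treated and 15.5 ± 11.9 CPM in SAG-treated mice (SD, n = 4). *Eif2ak2*, the highest of this class per length, was measured at 55, 54.3, 58.3, and 113 CPM in DMSO-treated and 47.7, 87.9, 59, and 96.2 CPM in SAG-treated mice, with DMSO replicate 4 above every other mouse and a log2 fold change of 0.052 (SE 0.30, adjusted p = 0.960), or 0.41 (adjusted p = 0.381) without it. *Oasl1* and *Oasl2* had log2 fold changes of 0.73 and 0.79 with adjusted p-values of 0.621 and 0.389.

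**Figure D4:**
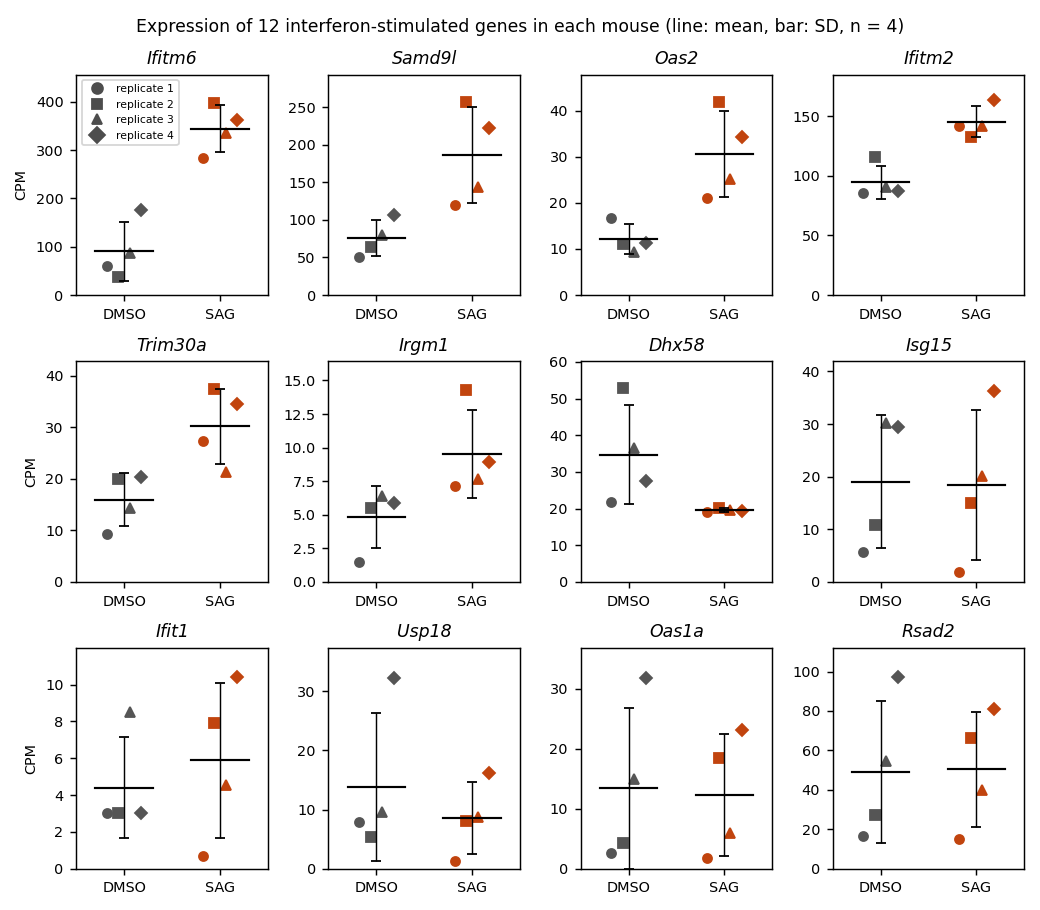
CPM of 12 interferon-stimulated genes in each mouse (symbols by replicate number), with the mean and SD of each group (n = 4). In *Ifitm6*, *Samd9l*, *Oas2*, *Ifitm2*, *Trim30a*, and *Irgm1* all SAG-treated mice lie above all DMSO-treated mice, in *Dhx58* all lie below, and in *Isg15*, *Ifit1*, *Usp18*, *Oas1a*, and *Rsad2* SAG replicate 1 is the lowest of all 8 mice.

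Of the 12 other effector genes, 10 had a log2 fold change above 0, and 1 was called. *Samd9l* (chr6:3372257-3399572), a restriction factor of poxviruses that also limits the growth of blood cells, was measured at 51, 63.7, 80.5, and 107 CPM in DMSO-treated and 120.4, 256, 144, and 223 CPM in SAG-treated mice. The groups did not overlap, although DMSO replicate 4 and SAG replicate 1 were close. The log2 fold change was 1.30 (SE 0.29, 95% confidence interval 0.66 to 1.94, adjusted p = 0.0383), and the means were 75.5 ± 24.2 and 186 ± 64.1 CPM (SD, n = 4). The log2 fold change lay between 1.11 and 1.54 with 1 mouse left out. The adjusted p was 0.103, 0.125, and 0.123 without DMSO replicates 1, 2, and 3 and 0.128, 0.0638, and 0.123 without SAG replicates 2, 3, and 4. Without DMSO replicate 4 it was 0.00603, and without SAG replicate 1 it was 0.0309. With DESeq2's size factors in edgeR it was 0.0509.

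*Trim30a* (chr7:104409025-104465193), a ubiquitin ligase of the TRIM family whose promoter holds an ISRE match at bases -36 to -27, was measured at 9.35, 19.9, 14.3, and 20.3 CPM in DMSO-treated and 27.4, 37.5, 21.3, and 34.4 CPM in SAG-treated mice. The groups were separated by about 1 CPM, between DMSO replicate 4 and SAG replicate 3, and the log2 fold change was 0.92 (SE 0.33, adjusted p = 0.183). *Rsad2*, which encodes the antiviral enzyme viperin, was measured at 16.5, 27.3, 54.6, and 97.4 CPM in DMSO-treated and 15.1, 66.1, 40, and 81 CPM in SAG-treated mice. Its mice spread from below 20 to above 80 CPM in either group, and the log2 fold change was 0.047 (95% confidence interval -1.19 to 1.29). *Rtp4* was measured at 14.7, 24, 42.7, and 41.6 CPM in DMSO-treated and 7.24, 71.2, 35.6, and 85.7 CPM in SAG-treated mice, with SAG replicate 1 below and SAG replicates 2 and 4 above all DMSO-treated mice, and a log2 fold change of 0.70 (SE 0.60, adjusted p = 0.648). *Cmpk2*, a mitochondrial nucleotide kinase whose gene neighbours *Rsad2* on chromosome 12, had a log2 fold change of 0.26 (SE 0.50, adjusted p = 0.872). *Bst2*, which encodes tetherin, a protein that holds virions at the cell surface, was at or below 10 CPM in all 8 mice, with a log2 fold change of 0.15. *Parp14* (0.58), *Isg20* (0.078), *Ifi35* (0.36), *Ifi44* (0.65), *Xaf1* (-0.34), and *Ifi27* (-0.40) had log2 fold changes whose adjusted p-values lay between 0.548 and 0.967.

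Of the genes for interferon-inducible GTPases, which attack the vacuoles of intracellular microbes or, as MX proteins, bind viral nucleocapsids, 4 of 7 had a log2 fold change above 0 and 0 were called. *Irgm1* (chr11:48861968-48871683) was measured at 1.45, 5.54, 6.43, and 5.88 CPM in DMSO-treated and 7.13, 14.3, 7.70, and 8.96 CPM in SAG-treated mice. The lowest SAG-treated and the highest DMSO-treated mouse were less than 1 CPM apart, DMSO replicate 1 lay far below the rest, and the log2 fold change was 0.98 (SE 0.56, adjusted p = 0.444). *Igtp* (chr11:58199556-58207591) had the highest level per length of this class in SAG-treated mice and in the mean of all 8. In DMSO-treated mice *Gbp3*, *Mx1*, *Gbp7*, and *Gbp2* were higher per length. *Igtp* was measured at 4.38, 7.06, 5.80, and 2.96 CPM in DMSO-treated and 5, 18.6, 9.09, and 21.6 CPM in SAG-treated mice. SAG replicates 2, 3, and 4 were above all DMSO-treated mice, SAG replicate 1 was inside the range of the DMSO-treated mice, and the log2 fold change was 1.43 (SE 0.54, adjusted p = 0.211). *Mx1*, which encodes an antiviral dynamin-like GTPase, was measured at 8.02, 14.6, 7.73, and 26.6 CPM in DMSO-treated and 7.99, 12, 2.94, and 7.89 CPM in SAG-treated mice and had a log2 fold change of -0.88 (SE 0.55, adjusted p = 0.487). *Gbp2*, *Gbp3*, and *Gbp7*, guanylate-binding proteins whose promoters all hold ISRE matches, had log2 fold changes of 0.26, -0.60, and 0.20 and adjusted p-values of 0.874, 0.545, and 0.861.

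Of the RNA sensors and their regulators, 3 of 5 had a log2 fold change above 0 and 0 were called. *Dhx58* (chr11:100694884-100704271) encodes LGP2, a helicase that binds viral RNA and tunes signaling by RIG-I and MDA5. It was measured at 21.8, 53, 36.6, and 27.5 CPM in DMSO-treated and 19.1, 20.2, 19.6, and 19.4 CPM in SAG-treated mice. The SAG-treated mice lay within about 1 CPM of each other and below every DMSO-treated mouse, and the log2 fold change of -0.83 (SE 0.30, adjusted p = 0.195) did not pass the test. *Ddx58*, the gene of RIG-I, was measured at 29.4, 29.7, 37.4, and 52.3 CPM in DMSO-treated and 36.6, 70.7, 32.6, and 54.1 CPM in SAG-treated mice, with a log2 fold change of 0.38 (SE 0.30, adjusted p = 0.618), and *Ifih1*, the gene of MDA5, had one of 0.20 (SE 0.38, adjusted p = 0.874). *Zbp1*, a sensor of Z-form nucleic acids, had a log2 fold change of 0.50 (SE 0.58, adjusted p = 0.761). *Trim25*, the ubiquitin ligase that modifies RIG-I, was the highest of this class per length in SAG-treated mice and in the mean of all 8, whereas *Dhx58* was higher in DMSO-treated mice. It was measured at 32.7, 42.6, 59.1, and 87.6 CPM in DMSO-treated and 33.5, 64.6, 56.3, and 60.3 CPM in SAG-treated mice, the groups overlapped throughout, and its log2 fold change was -0.047 (SE 0.32, adjusted p = 0.966).

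ISG15 is attached to other proteins in cells that have met interferon, and USP18 removes it and holds back the type I receptor. Neither gene passed the test. *Isg15* (chr4:156199424-156200818) was measured at 5.76, 10.9, 30.2, and 29.5 CPM in DMSO-treated and 1.87, 14.9, 20.2, and 36.4 CPM in SAG-treated mice. Its lowest and its highest value both came from SAG-treated mice, SAG replicates 1 and 4, and the log2 fold change of -0.055 had a 95% confidence interval of -1.66 to 1.55. *Usp18* (chr6:121245906-121270917) was measured at 7.83, 5.34, 9.63, and 32.3 CPM in DMSO-treated and 1.26, 8.10, 8.82, and 16.2 CPM in SAG-treated mice. DMSO replicate 4 was the highest and SAG replicate 1 the lowest of the 8 mice, and the log2 fold change was -0.68 (SE 0.73, adjusted p = 0.740), or 0.20 without DMSO replicate 4.

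The IFIT genes encode RNA-binding proteins, of which IFIT1 binds RNA that lacks the methylation of host caps, and lie together on chromosome 19. All 3 log2 fold changes were above 0 and 0 were called. *Ifit2* (chr19:34550694-34576419), the gene of the class with the largest log2 fold change, was measured at 9.37, 11.6, 20.2, and 15.2 CPM in DMSO-treated and 19.7, 36.1, 22.2, and 27.8 CPM in SAG-treated mice. Only SAG replicate 1 fell below the highest DMSO-treated mouse, and the log2 fold change was 0.91 (SE 0.34, adjusted p = 0.205). *Ifit1* was measured at 3.01, 3.04, 8.51, and 3.04 CPM in DMSO-treated and 0.690, 7.94, 4.53, and 10.4 CPM in SAG-treated mice and had a log2 fold change of 0.42 (SE 0.78, adjusted p = 0.866). *Ifit3* was measured at 20.2, 22, 15.2, and 9.83 CPM in DMSO-treated and 3.19, 29.6, 5.01, and 47.5 CPM in SAG-treated mice, with SAG replicates 1 and 3 below and SAG replicates 2 and 4 above all DMSO-treated mice, and a log2 fold change of 0.34 (SE 0.71, adjusted p = 0.883). Of its 31-base words 61.8% are shared with the copy *Ifit3b*. That copy was at 1.61, 3.73, 1.06, and 0.380 CPM in DMSO-treated and 4.08, 19.8, 6.20, and 27.1 CPM in SAG-treated mice, without overlap. The log2 fold change of *Ifit3b* was 3.07 (SE 0.82, adjusted p = 0.0729) and did not pass the test, whereas DESeq2 gave an adjusted p of 0.00187. The sum of both copies was 18.5 ± 6.77 and 35.6 ± 32.2 CPM (SD, n = 4), with the same order of the SAG-treated mice.

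All 4 genes for signal transduction and transcription had a log2 fold change above 0, and 0 were called. *Irf7* (chr7:141262706-141266481), the transcription factor that amplifies the production of type I interferon, was measured at 12.5, 30.3, 25.6, and 52.3 CPM in DMSO-treated and 34.6, 68.7, 49.4, and 71.4 CPM in SAG-treated mice. DMSO replicate 4 lay inside the range of the SAG-treated mice. The log2 fold change was 0.89 (SE 0.40, adjusted p = 0.294), and without DMSO replicate 4 it was 1.32 (adjusted p = 0.0362). *Irf1* (chr11:53770014-53778374), a factor induced by interferon-γ through the GAS, had the highest level per length of the class and was measured at 75.1, 78.1, 67.6, and 30.6 CPM in DMSO-treated and 77.6, 83.9, 81.1, and 94.9 CPM in SAG-treated mice. 7 of the 8 mice lay between 67.6 and 94.9 CPM, DMSO replicate 4 was lower, and the log2 fold change was 0.42 (SE 0.27, adjusted p = 0.506), or 0.23 (adjusted p = 0.499) without that mouse. *Stat2* and *Irf9*, which take part in the complex that binds the ISRE, had log2 fold changes of 0.063 (SE 0.30, adjusted p = 0.952) and 0.19 (SE 0.30, adjusted p = 0.833).

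Within each group the same mice held the lowest or the highest value in many of these genes. SAG replicate 1 was the lowest of the SAG-treated mice in 33 of the 43 genes (76.7%), against 30.6% of all genes tested, and its log2 CPM was below the mean of the other 3 SAG-treated mice in 39 of 43, by a median of 0.77 against 0.012 for all genes. The largest gaps were in *Isg15* (-3.54 on the log2 scale), *Ifit1* (-3.29), *Rtp4* (-3.04), *Usp18* (-3.00), *Oas1a* (-2.92), *Ifit3* (-2.57), and *Zbp1* (-2.47). *Ifitm1*, *Bst2*, *Mx1*, and *Gbp3* were the 4 genes in which SAG replicate 1 lay above that mean. DMSO replicate 4 was the highest of the DMSO-treated mice in 24 genes (55.8%, against 33.3% of all genes), and DMSO replicate 1 was the lowest in 21 (48.8%, against 23.3%). SAG replicates 2 and 4 were the highest of their group in 18 and 19 genes (41.9% and 44.2%, against 27.4% and 24.7% of all genes). Among the 19 genes with ISRE letters the median gap of SAG replicate 1 was -0.78, and among the 15 genes with a promoter sequence but without these letters it was -0.77. These positions are a description, since the genes of a library share its RNA and its depth.

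**Figure D5:**
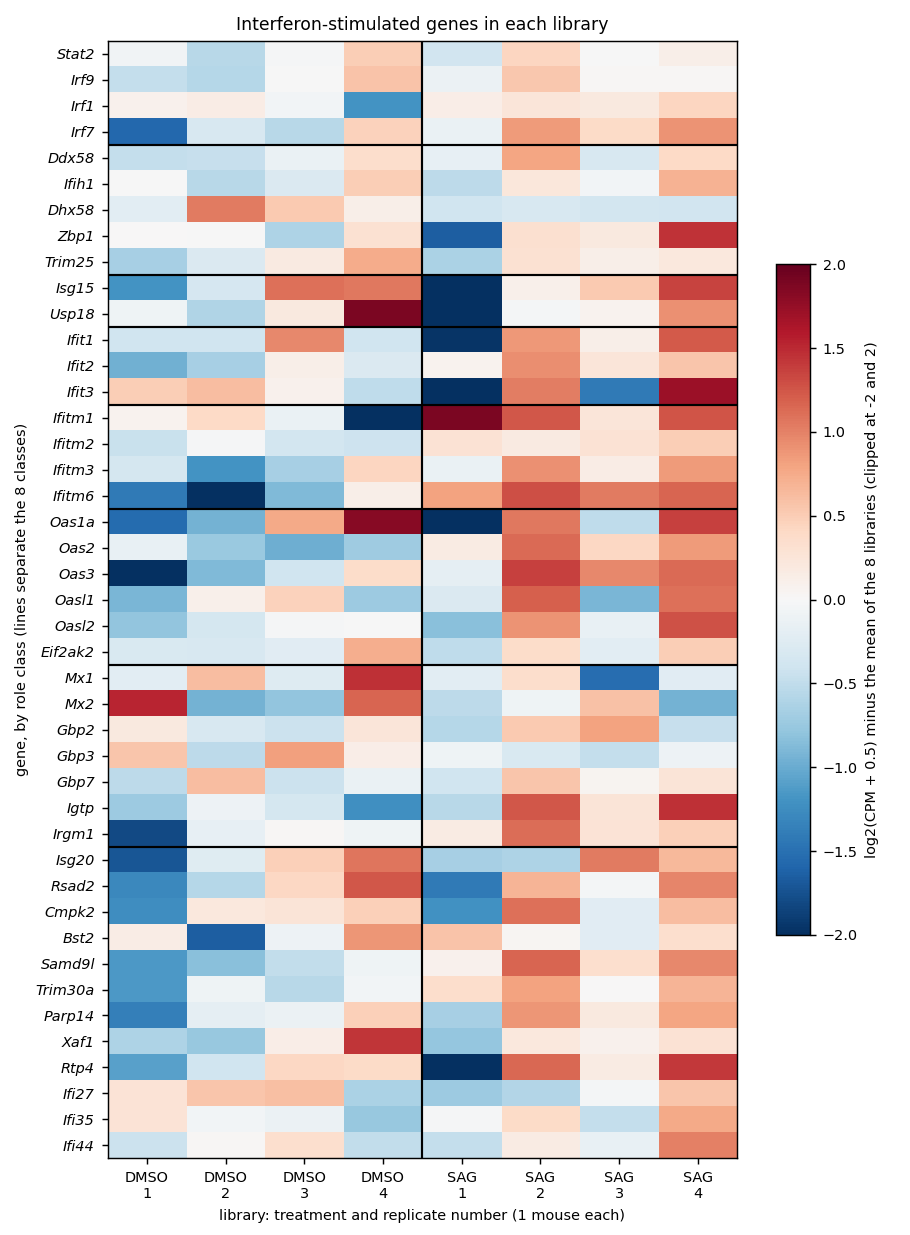
Heat map of log2(CPM + 0.5) minus the mean of the 8 libraries, clipped at -2 and 2, for the 43 genes (rows, with lines between the 8 role classes) in each mouse (columns, DMSO left and SAG right of the vertical line). SAG replicate 1 is blue in *Isg15*, *Usp18*, *Ifit1*, *Ifit3*, *Oas1a*, and *Rtp4*, where SAG replicate 4 is red, and the row of *Ifitm6* is red in every SAG-treated mouse.

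The fold changes of genes with and without ISRE letters were set side by side. The 19 genes with the letters had a median log2 fold change of 0.26 (16 above 0, 0 called), the 15 without them had one of 0.65 (13 above 0, 2 called), and the 9 genes with no promoter sequence had one of -0.40 (4 above 0, 0 called). The difference between these sets was not tested.

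The receptors and the signaling chain were described from a separate list of 42 interferon pathway genes, of which 31 had a column and 30 were tested. 3 were higher in SAG-treated mice and 0 were lower (10%, against 2.62% higher and 0.266% lower of all genes). *Ifnlr1*, the ligand-binding chain of the receptor for type III interferon that is known from epithelial cells and neutrophils, was measured at 13.1, 11.5, 6.97, and 11.2 CPM in DMSO-treated and 33.6, 57.9, 22.6, and 41.8 CPM in SAG-treated mice, without overlap, and its log2 fold change was 1.87 (SE 0.35, adjusted p = 0.0175). *Myd88*, the adaptor of Toll-like receptors, was measured at 48.4 to 83 CPM in DMSO-treated and 118 to 136 CPM in SAG-treated mice with a log2 fold change of 0.85 (SE 0.20, adjusted p = 0.0494). *Ptpn6*, which encodes SHP-1, a phosphatase of blood cells that limits JAK signaling, was measured at 185 to 524 CPM in DMSO-treated and 569.5 to 1009 CPM in SAG-treated mice with a log2 fold change of 1.28 (SE 0.31, adjusted p = 0.04996). These calls have the same limits as the others, since the number called higher in this list was 0 without DMSO replicate 2 or 3 or SAG replicate 2 or 4, 1 without DMSO replicate 1 or SAG replicate 1 or 3, and 7 without DMSO replicate 4.

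The receptors of type I and II interferon were expressed in every mouse, and none was called. *Ifnar1* was measured at 35.6 to 48.9 CPM in DMSO-treated and 49.8 to 60.7 CPM in SAG-treated mice, without overlap, with a log2 fold change of 0.34 (SE 0.20, adjusted p = 0.479), and *Ifnar2* at 39.3 to 65.6 CPM in DMSO-treated and 45.3 to 65.3 CPM in SAG-treated mice with one of 0.22 (SE 0.24, adjusted p = 0.748). *Ifngr1* was measured at 102 to 159.8 CPM in DMSO-treated and 174 to 244 CPM in SAG-treated mice, without overlap, with a log2 fold change of 0.56 (SE 0.19, adjusted p = 0.170), and *Ifngr2* had one of 0.31 (SE 0.22, adjusted p = 0.560). *Il10rb*, the second chain of the type III receptor, had a log2 fold change of 0.32 (SE 0.32, adjusted p = 0.715). *Socs1*, a feedback inhibitor of JAK kinases that interferon induces, was measured at 30.9, 33.5, 43.1, and 23.5 CPM in DMSO-treated and 26.4, 9.46, 7.30, and 11.1 CPM in SAG-treated mice, with a log2 fold change of -1.27 (SE 0.41, adjusted p = 0.138) and an adjusted p of 0.0359 with DESeq2. Of 11 ligand genes only *Ifnk* had a column, with at most 1.14 CPM in any mouse and too few counts to be tested, and the other 10 ligands were not analysed here.

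A second list of 87 further interferon-inducible genes, of which 80 had a column and 79 were tested, gave 4 genes higher and 1 lower in SAG-treated mice (5.06% and 1.27%, against 2.62% and 0.266% of all genes). *Slfn2* was measured at 167 to 318 CPM in DMSO-treated and 445 to 793 CPM in SAG-treated mice and *Slfn1* at 7.14 to 22.4 CPM in DMSO-treated and 32.7 to 78.9 CPM in SAG-treated mice, and the log2 fold changes of these Schlafen genes, which are best known from lymphoid and myeloid cells, were 1.43 (SE 0.25, adjusted p = 0.0143) and 2.01 (SE 0.39, adjusted p = 0.0208). *H2-D1*, a heavy chain of MHC class I, was measured at 359 to 566 CPM in DMSO-treated and 719.7 to 1119 CPM in SAG-treated mice with a log2 fold change of 0.99 (SE 0.21, adjusted p = 0.0301), and *Sp140*, a nuclear body protein of leukocytes, at 50.6 to 142 CPM in DMSO-treated and 143 to 265 CPM in SAG-treated mice with one of 1.35 (SE 0.32, adjusted p = 0.0454). *Ifi203*, of the family of DNA-binding PYHIN proteins, was lower, at 17.4 to 33.8 CPM in DMSO-treated and 5.06 to 13.1 CPM in SAG-treated mice, with a log2 fold change of -1.64 (SE 0.38, adjusted p = 0.0403). The median log2 fold change of the list was 0.22, with 47 of 79 above 0. The count of higher genes was 15 without DMSO replicate 4 and between 0 and 1 without DMSO replicate 1, 2, or 3 or SAG replicate 2 or 4. It was 3 and 4 without SAG replicates 3 and 1. Counts over all genes changed with the mouse left out as well.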

How the data were processed

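The authors deposited 1 table of raw counts per gene symbol (16536) and mouse (8). Per the labels, kallisto and DESeq2 were used with GRCm38, with no version, and the counts are whole numbers without normalization. kallisto divides reads between similar transcripts by estimation, so counts of near-identical copies depend on it. Rows were matched to mice by the labels, and each mouse is a separate library. Counts were compared in R 4.3.3 with edgeR 4.0.16 (filterByExpr, TMM, robust quasi-likelihood test, 2-sided, Benjamini-Hochberg over 15421 genes, threshold 0.05). CPM used the TMM factors, log2 values a prior count of 2, and the common dispersion was 0.466. Intervals are at 95%.

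Alternatives were DESeq2 1.42.0, DESeq2's size factors in edgeR, no filter, at least 10 counts in every library, a replicate block, and each mouse left out. Simulated counts with 4 libraries per group, none made to stand apart, had 200 genes changed 4-fold. They gave 5 false calls and 52% of the changed genes with edgeR, and 57 false calls and 64.5% with DESeq2. Identifiers, coordinates, and exon lengths came from GENCODE M21 (GRCm38), and shared sequence was counted as 31-base words of its transcripts.

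The 43 genes and the other lists were chosen with earlier results of these data known. Every one of the 43 could be named, and values per mouse were given for those with an adjusted p under 0.05, those without overlap of the groups, and those with the highest level or largest fold change in a role class, and for further genes chosen after their values were seen. Of the other lists the called genes, receptors, and ligands were named. *Socs1*, *Ifit3b*, *Ifitm7*, and *Ifitm10* were added after their values were seen.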

Additional observations from a re-analysis of the deposited data

Results flagged for a closer look

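Of 86 groups of 4 mice (43 genes in 2 groups), 7 held a mouse whose distance from the nearest other, as a share of the range of the group on the log2 scale, exceeded the limit that Dixon's test sets for 4 samples at 95%. Chance gives about 1 in 20, which is 4.3 of 86, and all 7 were in DMSO-treated mice. DMSO replicate 4 stood apart in 3 of them. *Ifitm1* in DMSO-treated mice had a ratio of 0.936, with 0 CPM in DMSO replicate 4 and 13.6 CPM in the nearest mouse. *Irf1* in DMSO-treated mice had a ratio of 0.846, with 30.6 CPM in DMSO replicate 4 against 67.6 CPM in the nearest mouse. *Eif2ak2* in DMSO-treated mice had a ratio of 0.904, with DMSO replicate 4 higher at 113 CPM against 58.3 CPM. *Irgm1* and *Cmpk2* in DMSO-treated mice had ratios of 0.899 and 0.846, each with DMSO replicate 1 lower, at 1.45 against 5.54 CPM and at 9.30 against 26.3 CPM. *Ifit1* in DMSO-treated mice had a ratio of 0.991, with DMSO replicate 3 at 8.51 CPM and the others close to 3.04 CPM. *Ifitm2* in DMSO-treated mice had a ratio of 0.836, with DMSO replicate 2 at 115 CPM against 90.3 CPM in the nearest mouse.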

How the results depend on the processing

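The number of interferon-stimulated genes called higher was 4 with DESeq2 and 1 with DESeq2's size factors, and 0 were called lower under every alternative. With 1 mouse left out it was between 0 and 6. The pathway genes called higher numbered 1 with DESeq2's size factors and 1 without a filter, and 0 to 7 with 1 mouse left out, and 1 was lower with DESeq2 and 0 to 1 with 1 mouse left out. Other inducible genes called higher numbered 9 with DESeq2 and 7 with at least 10 counts in every library, and 0 to 15 with 1 mouse left out, and 0 to 1 were lower. Of all genes, 797 were higher and 390 lower with DESeq2, 87 were lower with at least 10 counts, and 80 to 1017 were higher and 4 to 343 lower with 1 mouse left out. The median of the 43 log2 fold changes stayed above 0, between 0.14 and 0.57.

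The replicate numbers only number the mice: the correlation of the deviations of same-numbered mice was between 0.010 and 0.12, and replicate 1 alone passed 0.1. With a replicate block 3 of the 43 were called higher, with *Oas3* added, 18 of all genes were lower and 334 higher, the median of all genes was 0.022, and *Trim25* and *Ifit3* turned to 0.0067 and -0.43. Not every mouse correlated best with its own number.

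*Ifitm6* and *Samd9l* stayed above 0 in every alternative. Of 556 combinations of a gene and an alternative, 41 in 17 genes turned the direction, none of them in a called gene. *Rsad2* was -0.0081 with DESeq2, -0.0072 with its size factors, and -0.0034 without a filter. With 1 mouse left out the log2 fold changes that crossed 0 ranged as follows: *Stat2* from -0.087 to 0.30, *Ifih1* from -0.047 to 0.46, *Zbp1* from -0.11 to 0.84, *Trim25* from -0.23 to 0.29, *Isg15* from -0.62 to 0.32, *Usp18* from -1.18 to 0.20, *Ifit1* from -0.00072 to 0.92, *Ifit3* from -0.42 to 0.70, *Oas1a* from -0.61 to 0.79, *Eif2ak2* from -0.11 to 0.41, *Gbp2* from -0.034 to 0.46, *Isg20* from -0.30 to 0.57, *Rsad2* from -0.27 to 0.65, *Cmpk2* from -0.15 to 0.55, *Bst2* from -0.18 to 0.64, *Xaf1* from -0.59 to 0.42, and *Ifi44* from -0.061 to 1.02. The causes were not tested. In simulated data with 200 genes changed 2-fold, edgeR recovered 0% and DESeq2 13.5% of them, and the log2 fold changes of *Mx2* and *Ifi44*, close to the floor, had SEs of 1.81 and 1.21.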
